A study of Mus musculus with 4 samples.

Results

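The 9 genes described here handle iron in mouse cells: the ferritin subunits Ftl1 and Fth1, the Ftl1 copy Ftl1-ps1, the iron carriers Tfrc, Slc11a2 and Slc40a1, the haem-degrading enzyme Hmox1, and the iron regulators Ireb2 and Aco1. They were taken by symbol, all 9 were listed in each of the 4 libraries, and they are 9 of the 30406 genes that all 4 libraries list. The set was chosen with the level of Ftl1-ps1 in the lung libraries in view, so that difference is described and not tested. The study measured RNA of single cells in 4 mouse libraries by the 10x 3-prime method, with 1 library per group. The lung pair, RPR2 and CRPR2, came from mouse models of small cell lung cancer, a tumour with neuroendocrine features. As background from the field and not from the labels, RPR2 names tumours lacking Rb1, Trp53 and Rbl2, and CRPR2 those that lack Cracd as well. The other pair were allograft tumours of preSC, a precancerous mouse neuroendocrine cell line, labelled preSC_WT and preSC_CracdKO, with the genotypes WT and CracdKO. The labels give no age, sex, strain, host or number of animals for any group, and no treatment. Because no group has a replicate, every difference below is between single libraries, and all intervals are 95% intervals for counting error only.

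Ferritin is a hollow protein shell built of heavy (Fth1) and light (Ftl1) chains that stores iron in the cell. Iron enters many cells as transferrin bound by the receptor Tfrc and leaves the endosome through Slc11a2, and ferroportin (Slc40a1) is the known exporter. When iron is scarce, the regulators Aco1 (IRP1) and Ireb2 (IRP2) bind hairpins called iron-responsive elements, which blocks translation of the ferritin and ferroportin messages and stabilises that of Tfrc. Macrophages take up iron from old red cells, and Hmox1 frees it from haem.

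Reads of Ftl1 and of Ftl1-ps1 are hard to tell apart, and the sequences show where they can be. Ftl1 lies on chromosome 7 of GRCm38 from 45457944 to 45459884, and Ftl1-ps1 on chromosome 13 from 74399694 to 74407346. GENCODE types Ftl1-ps1 as protein coding despite its name. Over 910 aligned bases of a transcript of Ftl1 of 968 bases and 1 of Ftl1-ps1 of 938 bases, 906 were identical (99.56%) with no inner gap. Counted from the first base of that Ftl1 transcript, with the base of Ftl1 first, the differences were A196G in the 5′ UTR, G721A and G757A in the coding part, and A817G in the 3′ UTR. They lie 772, 247, 211 and 151 bases before the 3′ end of the Ftl1 transcript, and the 2 open reading frames translate to the same 183 residues. A tag from the last 151 bases of that Ftl1 transcript therefore fits both genes. The aligned part ends at base 968, the last of Ftl1, and the Ftl1-ps1 transcript runs on past it. Those further bases of Ftl1-ps1 were not compared. How such reads were assigned is not given in the sources used here. The coding stretch with 2 of the 4 differences, in capitals, is printed below to show how few bases separate the copies. It leaves out A817G, the difference nearest the 3′ end. It covers chr7:45458143-45458203 on the minus strand for Ftl1 and chr13:74407059-74407119 on the plus strand for Ftl1-ps1, both from the GENCODE transcripts of GRCm38.
Ftl1: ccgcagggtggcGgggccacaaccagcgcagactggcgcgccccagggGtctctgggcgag
Ftl1-ps1: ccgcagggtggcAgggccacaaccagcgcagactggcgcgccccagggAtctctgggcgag
The differences G721A and G757A are also carried by the processed pseudogenes Ftl1-ps2 and Ftl2-ps, which differ from Ftl1 at 12 of 549 and 7 of 552 aligned bases. A tag with those bases is thus not unique to Ftl1-ps1 in the genome.

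Several members also share regulatory hairpins. Transcripts were searched on the sense strand for the form of an iron-responsive element: an unpaired C, 5 base pairs, the loop CAGTGN and the pairing strand. Of the 9 members, 5 held it, against 448 of 55450 annotated genes of all types (0.808%). Ferritin, ferroportin and Tfrc messages are known for these elements, and Ftl1-ps1 is a near copy of Ftl1. That count thus follows from the choice of genes and is not a test. Below are the first such elements of 4 members, with the loop in capitals, to show that the Ftl1-ps1 message carries the element of Ftl1. They lie in the 5′ UTR of Ftl1 (chr7:45459778-45459807, minus strand), Ftl1-ps1 (chr13:74406428-74406457, plus), Fth1 (chr19:9982732-9982761, plus) and Slc40a1 (chr1:45925464-45925493, minus).
Ftl1: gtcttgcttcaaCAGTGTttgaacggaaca
Ftl1-ps1: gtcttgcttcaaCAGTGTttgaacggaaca
Fth1: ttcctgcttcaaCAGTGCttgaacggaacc
Slc40a1: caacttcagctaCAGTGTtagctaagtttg
Tfrc held 4 in its 3′ UTR, of which the first, at chr16:32631219-32631248 on the plus strand, is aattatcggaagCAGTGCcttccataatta. A match is a description of the sequence only. An element with a break among the 5 pairs would be missed, so a member without a match may still hold an element.

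The matrices held 9215 to 18559 barcodes and 42592323 to 110576113 UMIs per library, and 8869 to 18111 cells were kept. Any 2 libraries shared 36 to 79 barcodes. Cracd RNA, listed as C530008M17Rik, stood at 31.6 CPM (UMIs of the gene per 1000000 UMIs of the cells summed) in RPR2 and 23.6 CPM in CRPR2 tumour cells, but at 7.42 CPM in the library labelled preSC_WT and 84.3 CPM in that labelled preSC_CracdKO. The allograft level goes against the label. The CRPR2 level was lower than that of RPR2 (21.8 to 25.5 against 29.3 to 34.0 CPM), but most of the RNA was still present. Both points limit every direction given for both pairs. A 3′ tag outside a deleted part would not show a deletion. RPR2 also differed from CRPR2 in sex-linked RNA: Xist stood at 1570 against 0.223 CPM, and Eif2s3y, from the Y chromosome, at 0 against 81.6 CPM. Cell classes were rebuilt from marker genes and are called "-like". In tumour cells 24 of 25 tumour markers stood at least 2-fold above the median over the classes of both libraries of the pair, with 5 CPM added. In the library labelled preSC_CracdKO it was 18 of 25. The same markers named the tumour clusters, so these counts are not an independent check. The T-cell-like class of RPR2 was mostly clusters led by Rag1, Dntt or Cd8b1, genes of developing T cells, that held no cell of CRPR2.

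Ftl1-ps1 was abundant in RPR2 and low in CRPR2 in all 7 cell classes measured in both. RPR2 tumour cells held 229.9 CPM (224 to 236), from 5161 UMIs in 3067 cells. CRPR2 tumour cells held 8.03 CPM (7.0 to 9.18), from 216 UMIs in 6630 cells. Tumour cells of the allografts held 5.68 CPM under the label preSC_WT and 5.75 CPM under preSC_CracdKO. RPR2 thus stood apart from CRPR2 and from both allografts, while the allografts did not differ beyond counting error (ratio 1.01, 0.885 to 1.16). The 6 tumour clusters of RPR2 ranged from 151 to 295 CPM and those of CRPR2 from 7.12 to 10.9 CPM, with no overlap. In tumour cells the level in CRPR2 was 28.6-fold lower (25 to 32.9). In the other classes measured in both lung libraries the fold was 35.7 in macrophage-like, 46.5 in club-like, 46.6 in monocyte-like, 50.7 in plasma-cell-like, 57.7 in B-cell-like and 110 in T-cell-like cells. The lowest of these intervals began at 27.2 and the highest ended at 212. These values are what chose the genes and carry no test.

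A more direct measure is the share of Ftl1-ps1 among light chain UMIs, meaning those of Ftl1 and Ftl1-ps1 summed, because both are then counted in the same cells at the same depth. In RPR2 the share was 19.8% in tumour cells (19.3 to 20.2), 22.3% in macrophage-like, 24.0% in plasma-cell-like, 28.0% in club-like, 28.9% in monocyte-like, 30.7% in B-cell-like and 47.8% in T-cell-like cells (47.1 to 48.5). The share in CRPR2 lay between 0.387% and 0.775% over 10 classes. In the library labelled preSC_WT it lay between 0.369% and 1.19% over 6 classes. In tumour cells these 3 libraries were close to each other, at 0.593% (0.517 to 0.677), 0.603% (0.544 to 0.666) and 0.641% (0.586 to 0.699) in CRPR2, preSC_WT and preSC_CracdKO. Within RPR2 the classes did not overlap at the ends: the lowest cluster was tumour cluster 4 at 14.2% (12.8 to 15.6) and the highest T-cell-like cluster 9 at 50.7% (49.0 to 52.4). T-cell-like cluster 3, the only T-cell-like cluster that both lung libraries filled, stood at 35.9% in RPR2 and 0.671% in CRPR2.

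**Figure D1:**
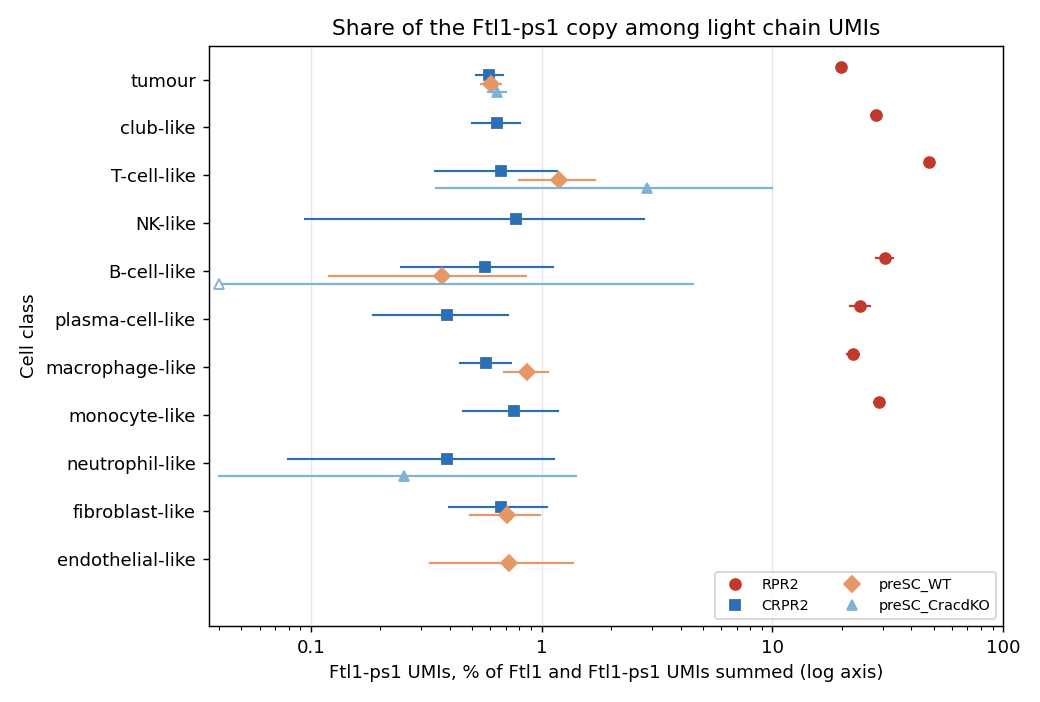
Share of Ftl1-ps1 among the UMIs of Ftl1 and Ftl1-ps1 summed (percent, log axis) in each cell class (rows) and library (colour and shape). Lines are 95% Clopper-Pearson intervals for counting error, cut at the left edge, and the open symbol is a share of 0. The RPR2 points lie between 19.8% and 47.8%, and every class of CRPR2 and preSC_WT lies at or below 1.19%.

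Cells of RPR2 did not all share the library's average. A pattern noticed in these data was that the share per cell fell into a group at 0 and a broad group around the middle of the scale. Among the 952 RPR2 tumour cells with at least 10 light chain UMIs, 474 (49.8%) had no Ftl1-ps1 UMI, 69 lay above 0 and below 10%, 30 lay from 10 to 20%, and 379 (39.8%) held at least 20%. Most of the last lay between 40 and 60%, with 96 cells from 40 to 50% and 98 from 50 to 60%. The same shape was seen in 151 club-like cells, with 58 at 0 and 78 at 20% or more. It was also seen in 117 monocyte-like cells, with 45 at 0 and 57 at 20% or more, and in 59 macrophage-like cells, with 19 and 28. The measured T-cell-like cells differed: of 271 cells, 6 (2.21%) were at 0 and 250 (92.3%) held at least 20%, with a median share of 46.2%. Another 4434 T-cell-like cells had too few light chain UMIs, and 157 of the 271 lay in cluster 11, which RPR2 filled alone. In cluster 3, which both lung libraries filled, 4 of 27 cells (14.8%) were at 0 and 74.1% held at least 20%. All 41 measured cells of T-cell-like cluster 9 held at least 20%. Outside RPR2, among classes with at least 10 such cells, 1 cell reached 20%, a tumour cell of the library labelled preSC_CracdKO. In CRPR2 tumour cells the highest share of 962 cells was 16.7%.

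**Figure D2:**
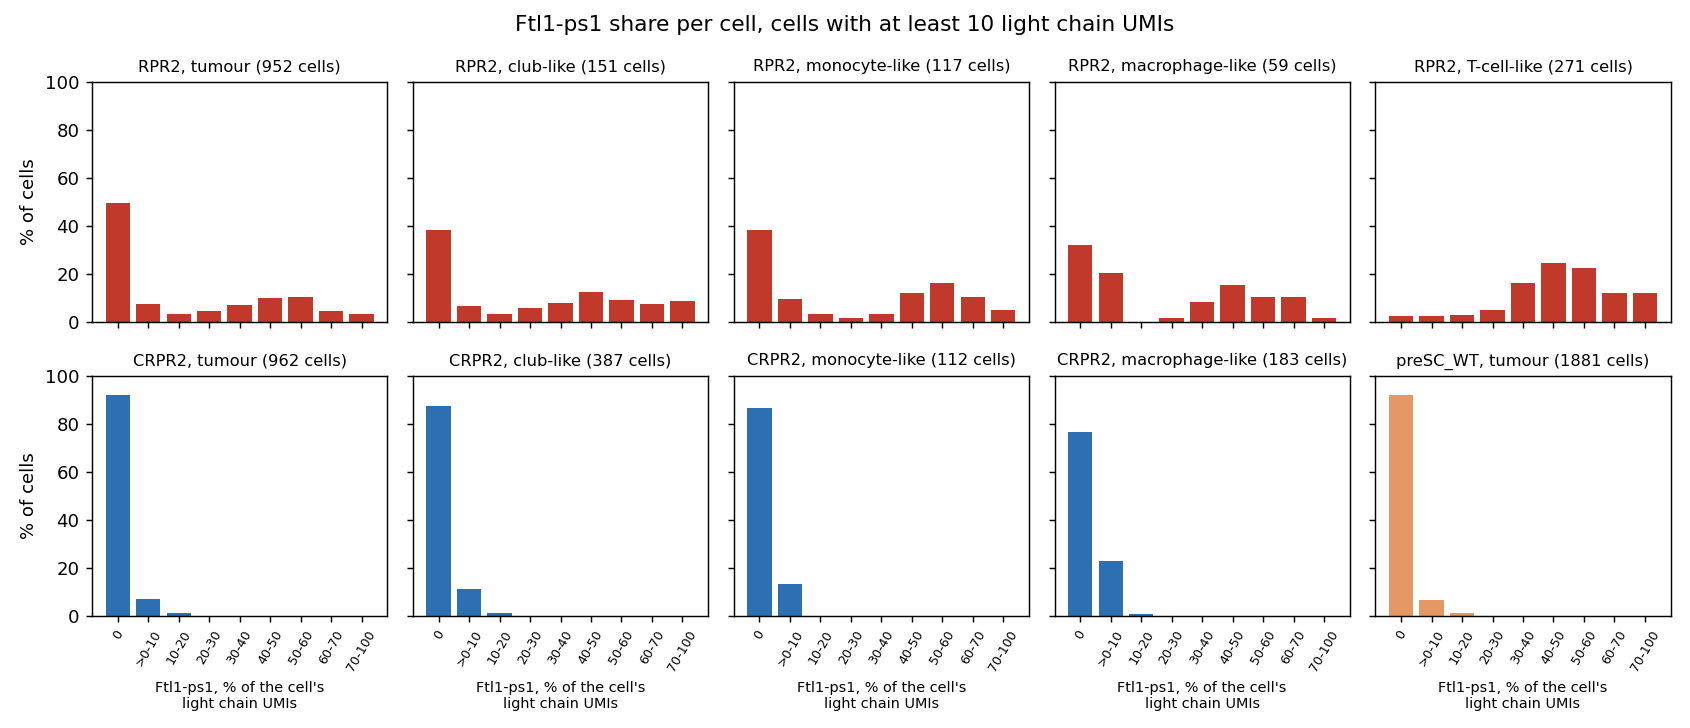
Share of Ftl1-ps1 among a cell's light chain UMIs (horizontal, percent, in bins) against the percent of cells (vertical) for cells with at least 10 light chain UMIs, by class and library. RPR2 tumour, club-like, monocyte-like and macrophage-like cells form a group at 0 and another from 30 to 70%, RPR2 T-cell-like cells form mainly the latter, and in CRPR2 and preSC_WT the cells stay below 20%.

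The groups within RPR2 differed in which light chain gene was counted more than in how much light chain was counted. In the 474 tumour cells without an Ftl1-ps1 UMI, Ftl1 stood at 1529 CPM (1495 to 1563). In the 379 tumour cells with a share of at least 20%, Ftl1 stood at 766 CPM (741 to 792) and Ftl1-ps1 at 671 CPM, which sum to 1437 CPM (1402 to 1472). Fth1 stood at 1591 and 1697 CPM in these groups, Tfrc at 56.6 and 46.5 CPM, Slc40a1 at 16.8 and 17.6 CPM, Ireb2 at 40 and 40.8 CPM and Hmox1 at 12.4 and 10.1 CPM. The intervals of Tfrc, Slc40a1, Ireb2 and Hmox1 overlapped between the groups. Those of Fth1 lay apart, at 1556 to 1627 CPM without the copy and 1659 to 1735 CPM with it. In monocyte-like and club-like cells Fth1 was instead lower with the copy, at 6488 against 7192 CPM and 3000 against 3303 CPM. As in tumour cells, Ftl1 was lower with the copy in monocyte-like cells, at 5099 CPM without it and 2728 CPM with it. Ftl1-ps1 stood at 3342 CPM in the latter monocyte-like cells. Their sum was higher with the copy, at 6070 CPM (5800 to 6350) against 5099 CPM (4822 to 5388). The sum in club-like cells was also higher with it, at 1883 CPM (1806 to 1963) against 1670 CPM (1584 to 1759). In tumour cells the sum was lower with the copy. Both groups were chosen on the share and on at least 10 light chain UMIs, so these levels are a description. Median depth was 8967.5 UMIs without the copy and 10244 UMIs with it in tumour cells. Xist was present in both, at 1419 and 1639 CPM. Gdpd3, which encodes a lysophospholipase D, moved with the copy: 2.80 CPM (1.53 to 4.70; 14 UMIs) without it and 28.9 CPM (24.1 to 34.3; 131 UMIs) with it in tumour cells, 32.2 against 180 CPM in monocyte-like cells, and 1.18 against 16.9 CPM in club-like cells. Neither the number of animals in RPR2 nor their strain was among the labels, and the part of either in this split was not tested.

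Over the 27 groups of at least 50 cells of 1 class and library, the genes whose log2 CPM was most like that of Ftl1-ps1 among 12632 genes were Xist (r = 0.88), Gdpd3 (0.86), Tsix (0.82), H2-Q1 (0.76) and BC023719 (0.72). Tsix lies antisense to Xist, and reads of the pair can be hard to separate. These values describe 27 points from 4 libraries, of which 7 points come from RPR2, so any gene that marks that library ranks high. Of 25 listed neighbours within 500 kb, 11 reached 5 CPM in lung tumour cells, and their ratios of CRPR2 over RPR2 ran from 0.788 to 1.66. Among those below 5 CPM, Lrrc14b, singled out after its values were seen, stood at 1.11 CPM in RPR2 and 0.223 CPM in CRPR2, a ratio of 0.20 (0.0672 to 0.50).

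In lung tumour cells the light chain genes summed differed less between the libraries than either gene alone, which did not hold in every class. In tumour cells Ftl1 stood at 933.9 CPM in RPR2 and 1346 CPM in CRPR2, a ratio of 1.44 (1.42 to 1.47). With Ftl1-ps1 added, the levels were 1164 CPM (1150 to 1178) and 1354 CPM (1340 to 1368), a ratio of 1.16 (1.15 to 1.18). Ftl1 alone was above 1 in all 7 classes measured in both, from 1.14 in monocyte-like to 1.60 in plasma-cell-like cells. The sum lay on both sides of 1, at 0.652 in T-cell-like, 0.819 in monocyte-like, 0.932 in B-cell-like, 0.941 in club-like, 1.09 in macrophage-like and 1.22 in plasma-cell-like cells. In T-cell-like and monocyte-like cells the sum thus lay farther from 1 than Ftl1 alone, which gave 1.24 and 1.14. In T-cell-like cluster 3, present in both, the sum gave 0.923 (0.866 to 0.983), where Ftl1 alone gave 1.43. Within tumour cells the 6 clusters gave ratios of the sum between 1.06 and 1.18.

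Across cell classes, ferritin RNA was highest in macrophage-like cells. The summed light chain stood there at 16366 CPM (15853 to 16892; 68 cells) in RPR2, 17760 CPM (17431 to 18093; 211 cells) in CRPR2 and 5297 CPM (5192 to 5405; 685 cells) in the library labelled preSC_WT. Macrophage-like cells were apart from every other named class in these libraries. In CRPR2 neutrophil-like cells followed at 5850 CPM and monocyte-like cells at 4239 CPM, and in RPR2 monocyte-like cells at 5175 CPM. Unnamed lung cluster 12, with a median depth of 12427 UMIs, is outside this order. Its 524 CRPR2 cells held 38881 light chain UMIs, against 36417 in 6630 tumour cells and 11110 in 211 macrophage-like cells of that library. Tumour, B-cell-like, T-cell-like and NK-like cells lay between 921 and 1547 CPM in RPR2, CRPR2 and preSC_WT. Macrophage-like cells of the library labelled preSC_CracdKO were only 38 and are not compared, and its neutrophil-like cells (64 cells) held 5695 CPM.

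Fth1, the heavy chain that oxidises iron for storage, followed the same order at the top and differed below. It stood at 26112 CPM in macrophage-like cells of RPR2, 34680 CPM of CRPR2 and 8731 CPM of preSC_WT. Fibroblast-like cells held 7379 CPM in CRPR2 and 6087 CPM in preSC_WT, B-cell-like cells 3224, 3625 and 2845 CPM in RPR2, CRPR2 and preSC_WT, and club-like cells 3199 and 3136 CPM in the lung pair. Plasma-cell-like cells were lowest, at 652 and 763 CPM, although the related B-cell-like cells were among the higher classes. These are shares of all UMIs, and median depth in RPR2 was 14442.5 UMIs in plasma-cell-like and 2294 in B-cell-like cells. There 645 Fth1 UMIs came from 68 plasma-cell-like cells and 3272 from 387 B-cell-like cells, so the contrast does not hold per cell. In tumour cells Fth1 stood at 1627 CPM in RPR2 and 1927 CPM in CRPR2, a ratio of 1.18 (1.17 to 1.2). The allograft pair differed in the other direction, at 1351 CPM (1342 to 1360) under the label preSC_WT. Under preSC_CracdKO it was 772 CPM (766 to 778), 1.75-fold lower (1.73 to 1.77). Among tumour clusters with at least 50 cells, all 5 of the latter, 723 to 798 CPM, lay below all 10 of the former, 858 to 1453 CPM. Genes most like Ftl1 over the 27 groups were Ccl6 (r = 0.95), Slc7a8, Arl11, Clec4n and C3ar1 (0.93), and those most like Fth1 were Ftl1 (0.88), Slc7a8, M6pr, Rab32 and Olr1 (0.85).

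Tfrc, the transferrin receptor, was highest in tumour cells of RPR2, CRPR2 and preSC_WT and in the T-cell-like clusters that RPR2 filled alone. Tumour cells held 54.6 CPM (51.6 to 57.8) in RPR2 and 48.6 CPM (46.0 to 51.3) in CRPR2. In the allografts they held 87.6 CPM (85.4 to 89.8) under the label preSC_WT and 49.3 CPM (47.8 to 50.8) under preSC_CracdKO. The lung libraries differed little (ratio 0.889, 0.822 to 0.962), and the allografts by 1.78-fold (1.71 to 1.85), with 38.3 to 58.2 CPM in the tumour clusters of preSC_CracdKO and 79.5 to 111 CPM in those of preSC_WT. T-cell-like cluster 11 of RPR2, led by Dntt and Trbc1, stood at 58.4 CPM (51.4 to 66.0), cluster 9, led by Trac and Lef1, at 54.5 CPM and cluster 1, led by Rag1, at 41.5 CPM. In the library labelled preSC_CracdKO neutrophil-like cells stood above tumour cells, at 130 CPM (59.3 to 246) from 9 UMIs. T-cell-like cluster 3 held 19.3 CPM in RPR2 and 13 CPM in CRPR2, and B-cell-like, monocyte-like and plasma-cell-like cells of the lung pair held 7.25 to 18.9 CPM. Because depth differs between classes, cells were also thinned to 1000 UMIs. Then 5.57% of RPR2 tumour cells held a Tfrc UMI against 27.9% unthinned (median depth 6070 UMIs). The thinned shares were 4.46% in CRPR2 tumour cells, 8.04% in preSC_WT and 4.49% in preSC_CracdKO. In B-cell-like cells of RPR2 the thinned share was 1.05% (0.286 to 2.66, from 4 of 382 cells) and the unthinned share 2.84% (median 2294 UMIs). Free RNA was not measured, and its part in these shares was not tested. Genes most like Tfrc were Zfp949 (r = 0.91), Zranb1, Zmym6, Xrcc1 and Utp4 (0.89).

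Slc11a2 (DMT1), which carries iron out of the endosome, was low in every class. Tumour cells held 8.46, 8.03, 9.33 and 11.1 CPM in RPR2, CRPR2, preSC_WT and preSC_CracdKO. The ratio in lung tumour cells was 0.949 (0.777 to 1.16), and in the allografts 1.19 (1.08 to 1.32), which turned to 0.907 in cells thinned to 1000 UMIs and to 0.992 with equal cluster weights. Club-like cells held 16.4 and 13.1 CPM in the lung pair and macrophage-like cells 19.5 CPM in preSC_WT, with intervals that overlap those of fibroblast-like cells there.

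Slc40a1 (ferroportin), the iron exporter, was found in macrophage-like, neutrophil-like, fibroblast-like and tumour cells of CRPR2 and hardly in lymphocytes of any library. Macrophage-like cells held 80.9 CPM (48.7 to 126; 19 UMIs) in RPR2, 30.4 CPM (18.3 to 47.4; 19 UMIs) in CRPR2 and 15.0 CPM (9.91 to 21.9; 27 UMIs) in preSC_WT. Neutrophil-like cells of CRPR2 held 83.0 CPM (41.5 to 149; 11 UMIs) and its fibroblast-like cells 23.5 CPM, while fibroblast-like cells of preSC_WT held 1 UMI. No UMI was found in 878 T-cell-like and 765 B-cell-like cells of CRPR2, where 3 UMIs would be 1.69 and 2.57 CPM, and 4 UMIs were found in 4705 T-cell-like cells of RPR2. Tumour cells held 17.6 CPM (15.9 to 19.4) in RPR2 and 18.4 CPM (16.9 to 20.1) in CRPR2, a ratio of 1.05 (0.917 to 1.2). The allografts were lower and differed, with 5.89 CPM (5.32 to 6.49) from 399 UMIs under the label preSC_WT. Under preSC_CracdKO the level was 0.719 CPM (0.552 to 0.920) from 63 UMIs, 8.19-fold lower (6.26 to 10.9). Both levels are under the 20 CPM that a call needs. Within preSC_WT the level differed between clusters. Its tumour clusters 1, 2, 6 and 7 held 5.14, 7.57, 6.70 and 5.21 CPM, and its other 6 tumour clusters held 2 UMIs together. Giving each shared tumour cluster equal weight left a ratio of 0.893, from few cells of preSC_WT. Genes most like Slc40a1 were Atp6v1e1 (r = 0.81), Atp6ap2, Il1rn, Cd63 and Dtx4 (0.77).

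Hmox1, which breaks haem down and releases its iron, was a gene of the myeloid classes. Among classes of at least 50 cells, neutrophil-like cells of the library labelled preSC_CracdKO were highest, at 346 CPM (222 to 515) from 24 UMIs. Macrophage-like cells of that library, only 38 and below this limit, stood higher still, at 1416 CPM (1227 to 1625). Neutrophil-like cells of CRPR2 held 75.5 CPM (36.2 to 139) from 10 UMIs. Monocyte-like cells held 249 CPM (215 to 287) in RPR2 and 213 CPM (178 to 254) in CRPR2. Macrophage-like cells held 132 CPM (89.7 to 187), 238 CPM (201.5 to 280) and 168 CPM (150 to 188) in RPR2, CRPR2 and preSC_WT, a ratio of 1.8 (1.22 to 2.75) in the lung pair. In CRPR2 macrophage-like and monocyte-like cells overlapped, and in RPR2 monocyte-like cells were higher. Endothelial-like cells of preSC_WT held 53.5 CPM, fibroblast-like cells 45.2 CPM in CRPR2 and 39.1 CPM in preSC_WT, and T-cell-like cells 3.39 and 3.37 CPM in the lung pair. Tumour cells held 9.58 and 7.96 CPM in RPR2 and CRPR2 (ratio 0.831, 0.684 to 1.01), and 11 and 6.49 CPM in preSC_WT and preSC_CracdKO, 1.70-fold lower (1.52 to 1.90). That allograft ratio of 0.589 became 0.174 with equal cluster weights. Tumour cluster 4 of preSC_CracdKO, at 18.1 CPM, stood above the other 4 of that library, which held 3.39 to 5.26 CPM. Genes most like Hmox1 were Sirpa (r = 0.94), Tgm2, Il13ra1, Lamp2 and Cln8 (0.89).

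**Figure D3:**
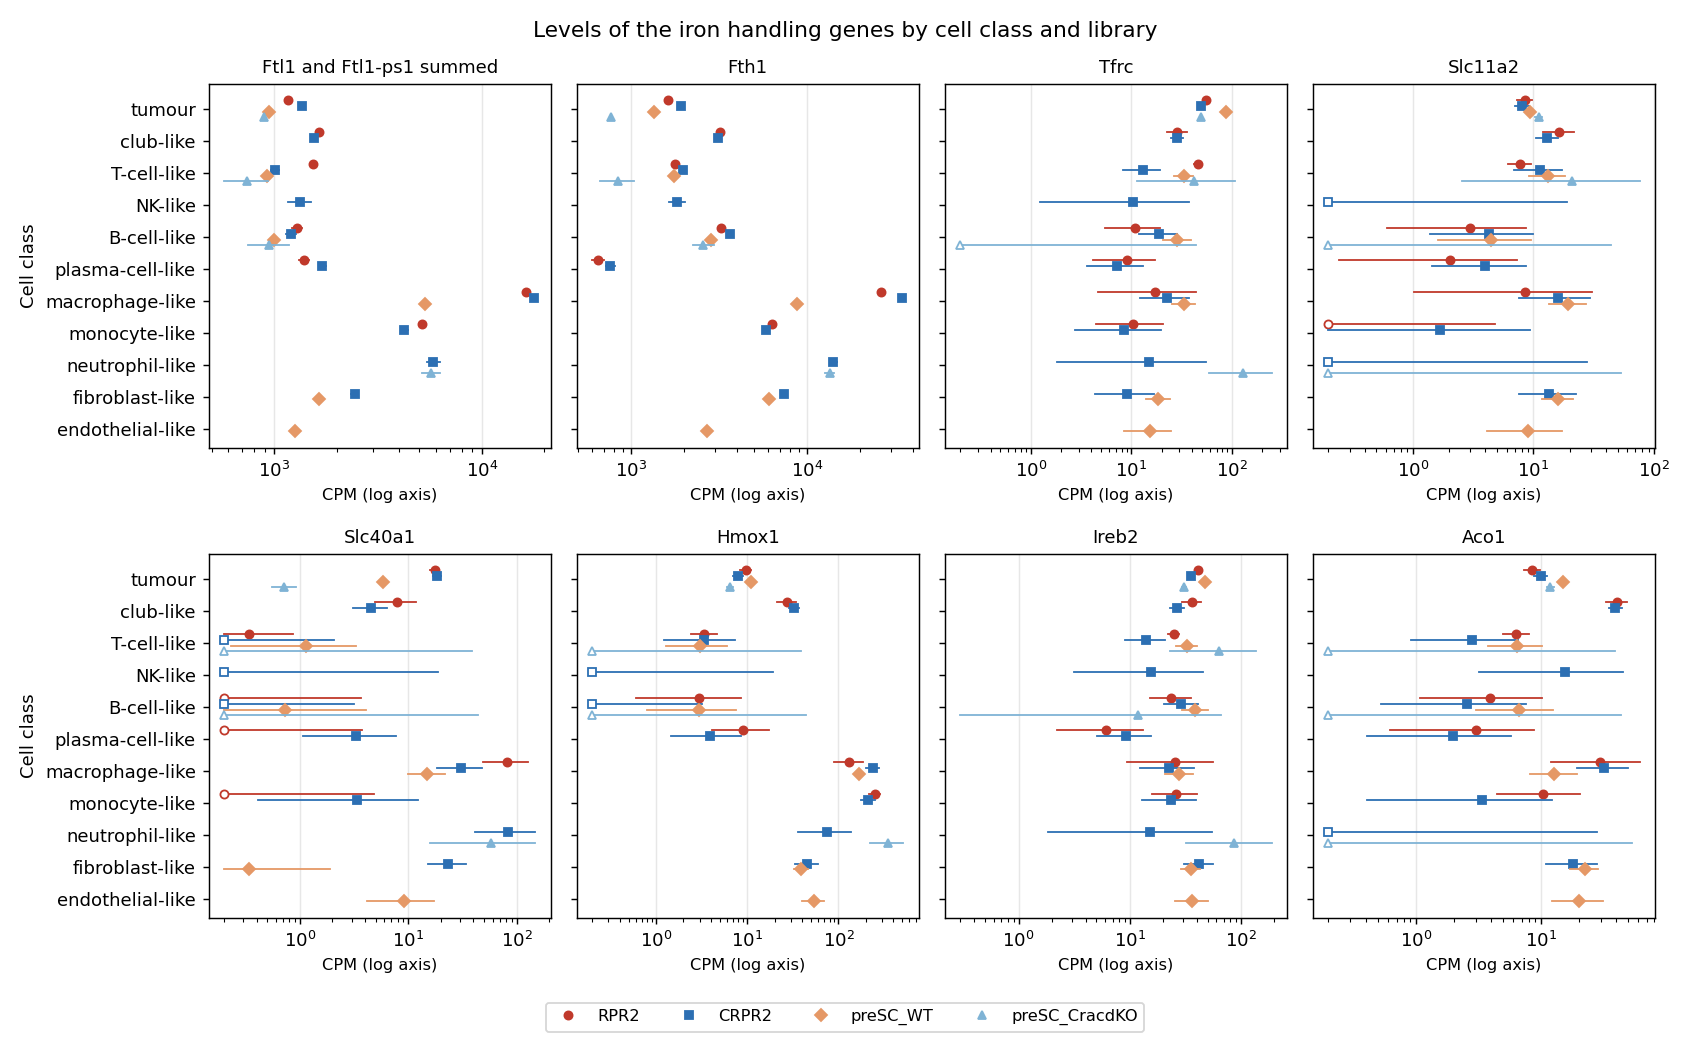
Level in CPM (horizontal, log axis) of the summed light chain and 7 other genes by cell class (rows) and library (colour and shape), for classes of at least 50 cells. Lines are 95% Poisson intervals for counting error and open symbols are levels of 0 drawn at the left edge. Ferritin peaks in macrophage-like cells, Tfrc in tumour cells of the lung pair and of preSC_WT, and Hmox1 in monocyte-like and macrophage-like cells of the lung pair.

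The iron regulators differed in where they were found. Ireb2 was widespread: tumour cells held 41.0, 35.4, 47.0 and 30.6 CPM in RPR2, CRPR2, preSC_WT and preSC_CracdKO, and plasma-cell-like cells were lowest in the lung pair at 6.07 and 9.22 CPM. The lung ratio in tumour cells was 0.862 (0.787 to 0.945), and the allograft level was 1.54-fold lower (1.46 to 1.62) in preSC_CracdKO. That ratio of 0.651 became 0.727 without mitochondrial, ribosomal protein and haemoglobin genes, 0.712 with the median gene set to 1, 0.668 with doublets kept and 0.912 with equal cluster weights, each short of 1.5-fold. Aco1, which is also the cytosolic aconitase, was highest in club-like cells of the lung pair, at 40.3 CPM (33.2 to 48.4) and 39.3 CPM (34.9 to 44.1), with overlapping intervals in macrophage-like cells. Tumour cells held 8.51 and 9.93 CPM of Aco1 in the lung pair (ratio 1.17, 0.966 to 1.41), and 15.0 and 11.9 CPM in the allografts (ratio 0.794, 0.728 to 0.867), which became 0.449 with equal cluster weights.

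In the lung cells named as tumour, no member passed a call rule apart from the copy that chose them. Unnamed lung cluster 12, with 524 cells of CRPR2 and 8 of RPR2, is not among these cells. In CRPR2 it held 38881 light chain UMIs, against 36417 in the tumour cells. Ratios with that cluster added are not given here, so the result holds for the named tumour cells only. A gene is called here when the libraries differ 2-fold or more and the higher one reaches 20 CPM. In lung tumour cells 1 of 9 members, Ftl1-ps1, was called lower in CRPR2, and 0 higher, beside 0.625% of genes called lower (45 of 7204) and 0.569% called higher (41). The call of Ftl1-ps1 was used by the choice of genes and nothing is read from it. With the looser rule of 1.5-fold and 5 CPM, the same 1 of 9 members was lower, beside 3.99% of genes lower and 3.08% higher. Of the other members Ftl1 came nearest to that rule, at a ratio of 1.44 (1.42 to 1.47). The median log2 ratio was -0.07 for the members and -0.03 for all genes.

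In allograft tumour cells 0 of 9 members passed the rule of 2-fold and 20 CPM, beside 14.8% of genes lower and 7.07% higher in the library labelled preSC_CracdKO. At 1.5-fold and 5 CPM, 5 of 9 members were lower, namely Fth1, Tfrc, Slc40a1, Hmox1 and Ireb2, and 0 were higher, beside 27.5% of genes lower and 16.8% higher. The call of Ireb2 was lost under both other scalings and with doublets kept. With equal cluster weights Fth1 (0.696), Slc40a1 (0.893) and Ireb2 (0.912) no longer reached 1.5-fold, while Ftl1 (0.60) and Aco1 (0.449) did. The tumour cells of the allografts lay in nearly separate clusters, and those that both filled held 63 to 190 cells of preSC_WT each where at least 50 were present. The median log2 ratio was -0.60 for the members and -0.15 for all genes, so genes at large also lay lower in that library. The level of Ftl1 was close in both, at 936.8 and 892 CPM (ratio 0.952, 0.942 to 0.962). Its direction was not stable: it became 1.06 without mitochondrial, ribosomal protein and haemoglobin genes, 1.04 with the median gene set to 1, and 0.60 with equal cluster weights. Within preSC_WT the 4 tumour clusters 1, 2, 6 and 7, which that library fills almost alone, held 882 to 921 CPM of Ftl1, and its other 6 held 1205 to 1854 CPM.

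**Figure D4:**
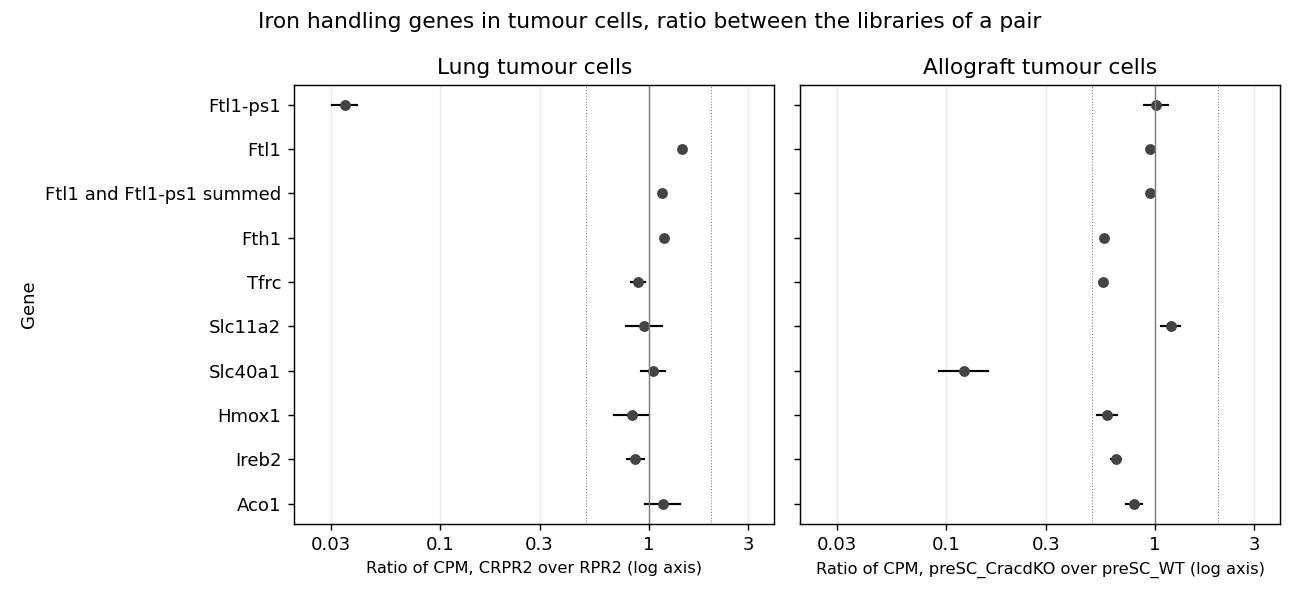
Ratio of CPM in tumour cells (horizontal, log axis) of CRPR2 over RPR2 and of preSC_CracdKO over preSC_WT, for the 9 genes and the summed light chain, with 95% intervals for counting error as lines. The solid line marks 1 and the dotted lines mark 2-fold. In the lung pair Ftl1-ps1 lies at 0.0349 and the others between 0.831 and 1.44, and in the allografts Slc40a1 lies at 0.122 and the others between 0.562 and 1.19.

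Beyond the members, 78 genes of the same pathways were listed in 6 lists, and those that reached 5 CPM in tumour cells were counted by the looser rule. In the lung pair 2 were higher in CRPR2 and 0 lower. Over all genes the same rule gave 3.08% higher and 3.99% lower, and each count is to be read beside these shares. Trf, the iron carrier transferrin, stood at 2.94 and 5.62 CPM (ratio 1.91, 1.42 to 2.59), as 1 of 2 genes of uptake and reduction at 5 CPM (median log2 ratio 0.55). Hp (haptoglobin), a plasma protein that binds free haemoglobin, stood at 8.02 and 15.8 CPM (ratio 1.97, 1.65 to 2.35), as 1 of 15 genes of haem metabolism (median -0.05). Hp was also among the leading genes of the club-like cluster, and the part of club-cell RNA in this ratio was not tested. The 6 storage and turnover genes (median 0.00), 2 genes of export and systemic control (-0.06), 15 genes of iron-sulphur cluster assembly (0.04) and 13 antioxidant genes (-0.05) had none past the rule. Their most abundant genes were the iron chaperone Pcbp2 (384 and 339 CPM), Bmp2, an inducer of hepcidin (40.2 and 31.9 CPM), the glutaredoxin Glrx5 (246 and 271 CPM) and the peroxidase Prdx1 (689 and 639 CPM).

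In the allografts 21 list genes passed, 16 lower and 5 higher in the library labelled preSC_CracdKO. Of 6 storage and turnover genes 2 were lower (median log2 ratio -0.26). Ncoa4, the receptor that delivers ferritin to lysosomes, stood at 45.9 and 13.9 CPM (ratio 0.303, 0.283 to 0.324), and the iron chaperone Pcbp1 at 201.3 and 128 CPM (0.633, 0.618 to 0.649). Of the genes of export and systemic control, Bmp2 alone reached 5 CPM, at 53.8 and 8.33 CPM (ratio 0.155, 0.143 to 0.168). Of 15 haem genes 5 were lower and 2 higher (median -0.44). The haem exporter Flvcr1 stood at 30.8 and 12.7 CPM, Alas1, which starts haem synthesis, at 20.7 and 9.15 CPM, while Urod, a later enzyme of that synthesis, stood at 34.0 and 91.5 CPM and the scavenger receptor Lrp1 at 1.62 and 6.0 CPM. Synthesis genes therefore lay on both sides. Of 14 iron-sulphur genes 4 were lower and 0 higher (median -0.33): the scaffold Iscu (67.4 and 37.4 CPM), Glrx5 (306 and 180 CPM), Nfu1 (77.7 and 49.8 CPM) and Hscb (15.7 and 9.93 CPM). Of 14 antioxidant genes 4 were lower and 3 higher (median -0.18). The sulphiredoxin Srxn1 stood at 39.3 and 13 CPM and the stress regulator Nfe2l2 at 44.1 and 23.5 CPM, against 1.71 and 7.36 CPM of Slc7a11 and 58.3 and 112 CPM of Slc3a2, the subunits of the cystine importer. Slc39a14, the only gene of uptake and reduction at 5 CPM, stood at 7.85 and 6.55 CPM. Each count is to be read beside the 27.5% and 16.8% of all genes given above.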

How the data were processed

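RNA of single cells was measured in 4 libraries, 1 per group. The deposited matrices hold raw UMI counts; the file headers name Cell Ranger 6.1.2 (lung) and 5.0.0 (allografts) as the authors' software, and the submitters' processing notes name mm10. No source used here gives the annotation or how reads matching several genes were counted. Filters kept cells with 300 or more genes and 15% or less mitochondrial UMIs. Doublets were called per library by Scrublet (scanpy 1.11.5), whose own threshold removed 259 in RPR2 and 357 in preSC_WT. It called under 0.5% in CRPR2 and preSC_CracdKO, so there the top scores were taken out at a rate of 0.8% per 1000 barcodes (1164 and 2102). Each pair was clustered jointly (2000 variable genes, 50 components, 15 neighbours, Leiden resolution 1.0, seed 1, no integration). Clusters were named from marker lists by a scoring rule set after the clusters were seen, including that a cluster sharing 5 of its leading 10 genes with a tumour cluster stays unnamed. The largest unnamed clusters held 4.85% of CRPR2 and 9.22% of preSC_WT cells.

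Counts were summed per class and library into CPM with Poisson intervals, ratios carry conditional binomial and shares Clopper-Pearson intervals (95%, counting error only), and log2 ratios add 1 CPM. The ratio script was tested on simulated data. Members, lists and markers were chosen with earlier results of these data known. Genes named from lists are those with the largest change past the rule, at most 4 per list and pair, or else the most abundant.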

Additional observations from a re-analysis of the deposited data

How the results depend on the processing

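Ftl1-ps1 stayed lower in CRPR2 tumour cells under all 9 alternatives tried: doublets kept, 10% mitochondrial ceiling, Leiden resolutions 0.5 and 2.0, 2 other scalings, a mean over cells, thinning and equal cluster weights. The summed light chain ratio, 1.16, was 1.18 with the median gene set to 1, 1.19 as a mean over cells and 1.14 with equal cluster weights. In the allografts the count of members called, 0, was 2 with equal cluster weights (Hmox1 at 0.174 and Aco1 at 0.449) and 1 at 2-fold and 5 CPM. The count of list genes past the rule in the lung pair, 2, was 5 in thinned cells, 0 at 20 CPM and 13 with no minimum, and in the allografts, 21, it was 38 with no minimum. Of RPR2 tumour cells with at least 10 light chain UMIs, 49.8% had no Ftl1-ps1 UMI, and of those with at least 20, 42.9% had none, a limit chosen after seeing the data, as was adding unnamed allograft cluster 10. No called value changed direction under these alternatives. Depth limits Slc40a1 most: outside tumour cells no class of at least 50 cells held more than 33 UMIs. No paired analysis was possible because each group held 1 library.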
